A study of Mus musculus with 37 samples.

Results

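The delta protocadherins are a family of non-clustered cadherin-like adhesion molecules, and 8 of them were followed in the hearts of mice at embryonic day E10.5: Pcdh1, Pcdh7, Pcdh8, Pcdh9, Pcdh10, Pcdh17, Pcdh18 and Pcdh19. The members were taken by gene symbol, and all 8 were found among the 25239 genes of the count table. Expression was measured by bulk RNA sequencing in 37 libraries that fall into 4 genotypes. Fathers were Stra8-iCre; Nipbl Flox/+, a combination whose sperm carried either the Nipbl Flox allele, described by the submitters as wild type, or the null allele Nipbl FIN. Mothers were Isl1 Cre/+, with a Cre recombinase gene in 1 Isl1 allele that leaves them haploinsufficient for Isl1. The groups are Nipbl +/+; Isl1 +/+ (here wild_type, n = 10), Isl1 +/- (Isl1_het, n = 9), Nipbl +/- (Nipbl_het, n = 9) and Nipbl +/-; Isl1 +/- (double_het, n = 9). All 4 genotypes, the wild_type controls included, come from this 1 cross, and a paternal null allele recombined in the male germ line is carried by every cell of the embryo. An Isl1_het embryo that received the Flox allele carries it together with the maternal Isl1 Cre. Whether Isl1 Cre recombined that allele in Isl1_het hearts was not tested. Comparisons that use Isl1_het cannot tell such recombination apart from the loss of 1 Isl1 copy. The labels do not say whether each library is 1 heart or whether an embryo inherited the Stra8-iCre transgene, so p-values measure the spread between these libraries.

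Delta protocadherins have extracellular cadherin repeats that bind the same molecule on the neighbouring cell, a single membrane span and a cytoplasmic tail with conserved motifs. They are divided into delta-1 members, here Pcdh1, Pcdh7 and Pcdh9, and delta-2 members, here Pcdh8, Pcdh10, Pcdh17, Pcdh18 and Pcdh19, whose tails can recruit the WAVE complex that drives branched actin. They are best known from cell sorting and axon growth in the nervous system, from mesoderm in the case of Pcdh8, and Pcdh19 from an X-linked epilepsy. Nipbl encodes a loader of cohesin, the ring complex that folds chromosomes into loops; Isl1 is a homeodomain factor of cells that build the heart. The clustered protocadherins are a well-known group of cohesin-sensitive genes, whereas the members described here are single genes scattered over several chromosomes.

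Library totals ranged from 23.4 to 51.0 mega-counts, with a median of 36.2. Each library has a set number, taken from the number after IVF in its label, whose meaning is not spelled out. Set 1 held 3 wild_type and 3 Isl1_het libraries and no Nipbl +/- library, sets 2, 5 and 6 held all 4 genotypes, and set 7 held only double_het replicate 2, which its own set term fits exactly, so that fitted comparisons of double_het rest on 8 libraries. Nipbl, the check of the labels, was at 47.6 to 78.8 CPM (counts per mega-count after TMM scaling of the library) in wild_type, and 8 of 9 Nipbl_het and 8 of 9 double_het libraries lay below that range. The exception in double_het was replicate 2, at 51.5 CPM, which is the library fitted exactly. The library labelled Nipbl_het replicate 2 stood at 72.4 CPM of Nipbl and so went against its label; changes of the tested members in Nipbl_het are given with and without it, and counts over gene lists include it. Isl1 was at 7.37 ± 2.24 CPM in wild_type (SD, n = 10) and 6.28 ± 1.76 CPM in Isl1_het (SD, n = 9), so the Isl1 label could not be checked from the transcript level. Its log2 change was −0.47 in double_het against Nipbl_het (adjusted p 0.518, edgeR). Averaged over both Nipbl genotypes, the effect of Isl1 loss on it was −0.33 (adjusted p 0.321, edgeR). Both lay in the direction of the label, and neither passed the threshold. Isl1 was higher in Nipbl_het, at 13.0 ± 2.82 CPM (SD, n = 9), with a log2 change against wild_type of 0.79 (SE 0.19, adjusted p 0.0252, edgeR), or 0.81 without the library labelled Nipbl_het replicate 2. That call was lost with the title number of the library as a replicate block (adjusted p 0.0549), without set 1, 2 or 6 (0.0581, 0.180 and 0.188), and without Nipbl_het replicate 9 or wild_type replicate 4, 6, 8 or 9 (0.0547 to 0.0740, edgeR). As a check of the tissue, cardiomyocyte markers were read: their summed level over 8 genes was between 28698 and 43370 CPM in every library.

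The members occupied regions poor in other genes. In the GENCODE M21 annotation of GRCm38, Pcdh7 lies on the plus strand at chr5:57717967-58133230, and the nearest protein-coding genes are 3597 kb to its left and 3676 kb to its right. Pcdh17, on the plus strand at chr14:84443563-84539002, has gaps that sum to 6537 kb, and Pcdh9, on the minus strand at chr14:93013410-93890679, has gaps that sum to 6533 kb. Pcdh10 (plus strand, chr3:45378398-45435623), Pcdh18 (minus strand, chr3:49743296-49757325) and Pcdh19 (minus strand, chrX:133582860-133688987) had summed gaps of 4582, 3430 and 3279 kb. These compare with a median summed gap of 46.5 kb over 21891 protein-coding genes, and Pcdh19, with the smallest gap of the 6 members named so far, exceeded 99.7% of those genes. Pcdh8 (minus strand, chr14:79766775-79771312) and Pcdh1 (minus strand, chr18:38185914-38212053) had smaller gaps of 317 and 225 kb, above 88.4% and 84.4% of genes. Pcdh1, Pcdh7, Pcdh8, Pcdh9, Pcdh10, Pcdh17 and Pcdh19 overlap annotated transcripts on the opposite strand, and since the strand setting of the counting is not given in the sources used here, their counts can include antisense reads.

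**Figure D1:**
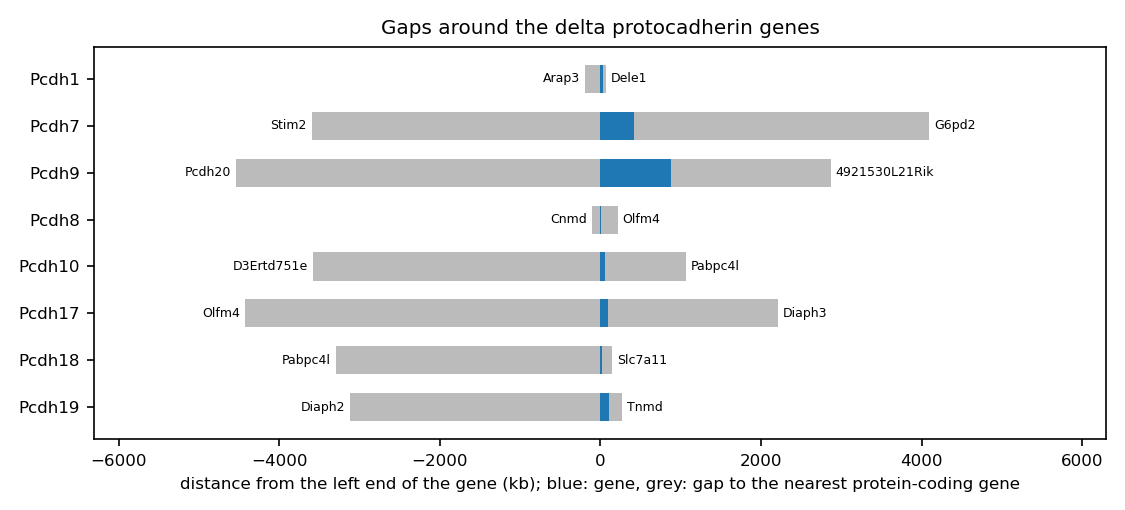
Length of each member (blue) and distance in kb to the nearest protein-coding gene on either side (grey), with that neighbour's symbol at the end of the bar. Pcdh7, Pcdh9, Pcdh17 and Pcdh10 lie in summed gaps of 4582 to 7272 kb, while the summed gaps of Pcdh1 and Pcdh8 are 225 and 317 kb.

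Promoter sequences of 300 bases, of which 250 precede the RefSeq start, were found for 7 members and not for Pcdh1. They held 11 (Pcdh7) to 26 (Pcdh17) CpG dinucleotides, against a median of 7 over 32851 mouse promoters of that length. No match to CTAATTG or CTAATGG, letters bound by Isl1-type homeodomains and present in 3.94% of promoters, and none to a CTCF core consensus, present in 0.557%, was found on either strand of these windows, while TATAAA, present in 13.6%, was found in Pcdh8 alone. The 250 bases before the start are shown for 3 genes on chromosome 14: Pcdh17, which had the largest pairwise genotype change among the 6 tested members, Pcdh8, which was almost silent, and Cnmd, the nearest neighbour of Pcdh8, which rose with Nipbl loss. CpG dinucleotides and TATAAA are in capitals, and sequences are written in the direction of transcription (RefSeq, GRCm38.p6).
Pcdh17, plus strand, chr14:84443313-84443562: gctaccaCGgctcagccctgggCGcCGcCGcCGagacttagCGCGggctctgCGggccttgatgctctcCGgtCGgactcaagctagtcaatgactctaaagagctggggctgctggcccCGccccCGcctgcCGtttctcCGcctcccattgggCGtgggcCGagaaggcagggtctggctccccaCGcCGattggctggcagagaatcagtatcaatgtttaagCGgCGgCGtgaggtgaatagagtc
Pcdh8, minus strand, chr14:79771313-79771562: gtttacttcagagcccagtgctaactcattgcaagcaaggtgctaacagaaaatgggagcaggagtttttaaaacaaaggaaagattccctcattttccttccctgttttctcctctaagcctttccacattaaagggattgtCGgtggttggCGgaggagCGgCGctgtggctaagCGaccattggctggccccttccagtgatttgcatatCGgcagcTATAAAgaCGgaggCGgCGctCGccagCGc
Cnmd, minus strand, chr14:79662184-79662433: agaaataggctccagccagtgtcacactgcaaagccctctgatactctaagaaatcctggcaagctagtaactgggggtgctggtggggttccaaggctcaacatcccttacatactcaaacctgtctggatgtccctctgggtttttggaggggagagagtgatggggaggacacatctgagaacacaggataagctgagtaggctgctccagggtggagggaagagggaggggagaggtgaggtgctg
The upstream windows of Pcdh17, Pcdh8 and Cnmd held 21, 11 and 0 CpG dinucleotides. The median over 32851 windows of this length was 6, and 7.87% of them held none.

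Pcdh7, a delta-1 member, was the most abundant of the family in every library. Its wild_type level, per exon kilobase so that genes can be compared, was 7.14 ± 1.49 CPM per kb (SD, n = 10). Pcdh18 followed at 1.98 ± 1.08 and Pcdh1 at 0.858 ± 0.236 CPM per kb (SD, n = 10 each). Next came Pcdh17 at 0.184 ± 0.114, Pcdh19 at 0.0458 ± 0.0233, Pcdh9 at 0.0415 ± 0.0231, Pcdh8 at 0.0114 ± 0.0120 and Pcdh10 at 0.00954 ± 0.0112 CPM per kb (SD, n = 10 each). Pcdh7 exceeded Pcdh18, Pcdh18 exceeded Pcdh1, and Pcdh1 exceeded Pcdh17 in 37 of 37 libraries. Pcdh17 exceeded Pcdh19 in 36 of 37. The order of Pcdh19 and Pcdh9, which held in 16 of 37 libraries, and that of Pcdh8 and Pcdh10, which held in 15 of 37, were not set apart by the spread. Per library, Pcdh7 made up 63.1% to 84.5% of the summed CPM of the 8 members.

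**Figure D2:**
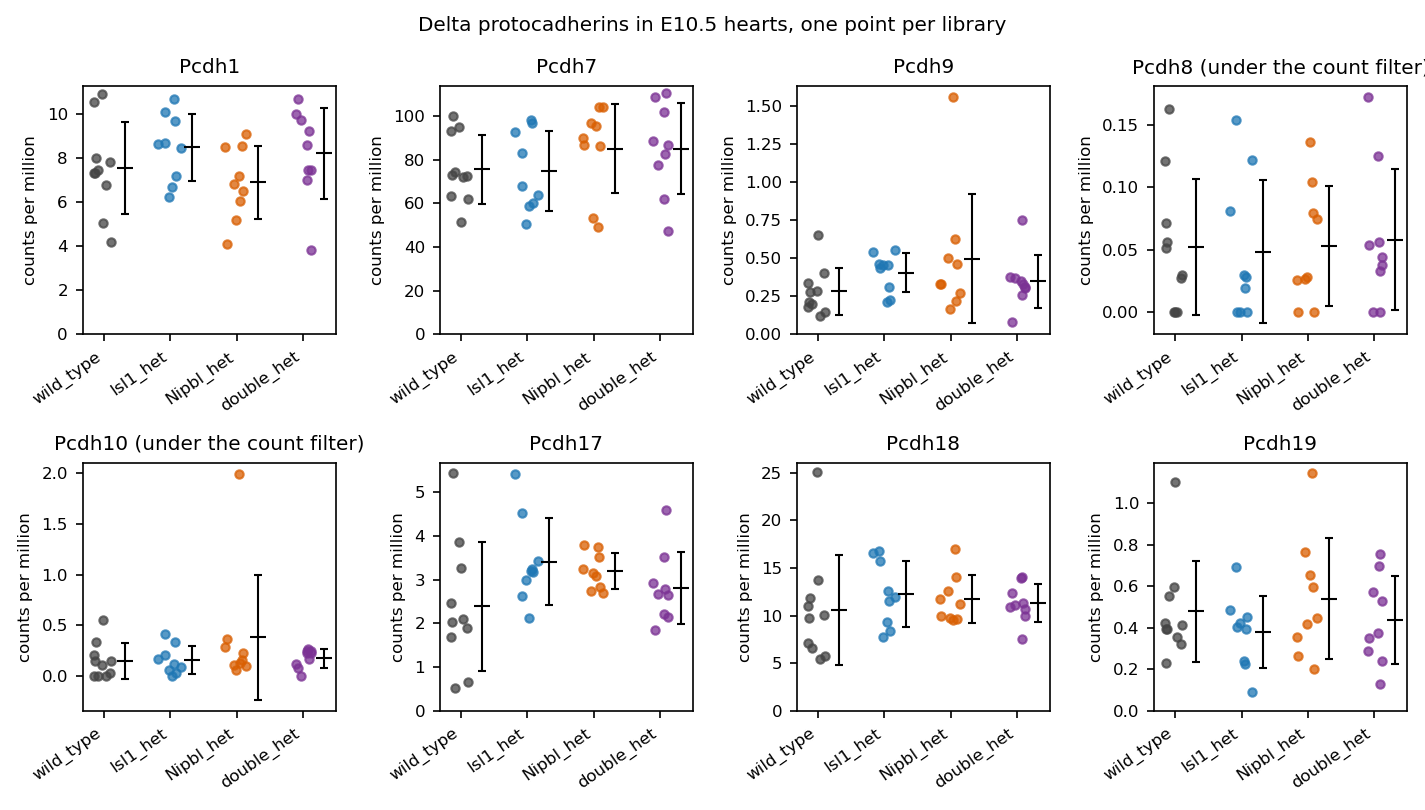
CPM of each member (vertical axis, a separate scale per gene) in each library, by genotype, with the mean and SD beside the points. The groups overlap for every member, and the library labelled Nipbl_het replicate 2 is the highest point for Pcdh9 and Pcdh10.

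Pcdh8 and Pcdh10 were near the limit of detection. Pcdh8, the paraxial protocadherin of early mesoderm, had 0 to 6 counts per library, with 10 of 37 libraries at 0. Pcdh10, known from axon outgrowth in the forebrain, had 0 to 16 counts in 36 libraries and 5 libraries at 0. A count of 0 allows a level of up to 3 counts, which is between 0.0566 and 0.151 CPM depending on the library. Both genes were under the filter on low counts, so 6 of the 8 members were tested. In an unfiltered fit added after the data were seen, the log2 change of Pcdh10 in Nipbl_het against wild_type was 0.76 (SE 0.69), and without the library labelled Nipbl_het replicate 2 it was −0.13 (SE 0.58). That library held 73 counts of Pcdh10 (1.99 CPM), while the highest of the other libraries was at 0.552 CPM. For Pcdh8 the corresponding values were 0.28 (SE 0.79) and −0.05 (SE 0.80).

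Genotype differences were asked for in 8 contrasts: each heterozygote and the double heterozygote against wild_type, double_het against each single heterozygote, the interaction, and the effects of Nipbl and of Isl1 averaged over the other genotype. None of the 6 tested members passed an adjusted p of 0.05 in any of them with edgeR's quasi-likelihood test, in which genotype and set were fitted over 15046 genes. The share of all tested genes called was 0% in Isl1_het against wild_type, 1.71% in Nipbl_het against wild_type, 2.60% in double_het against wild_type, 0.957% in double_het against Isl1_het and 0% in double_het against Nipbl_het. It was 0% for the interaction, 4.02% for the mean Nipbl effect and 0.173% for the mean Isl1 effect. At these shares, a count of 0 among 6 genes is near the background. With an unadjusted p under 0.05, the members numbered 2, 1, 0, 1, 0, 2, 1 and 0 of 6 in the same order, against 5.89%, 15.1%, 11.6%, 7.49%, 9.01%, 2.73%, 14.9% and 12.2% of all genes. DESeq2 with the same design also called 0 members in each contrast. The comparisons against wild_type share their control libraries.

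**Figure D3:**
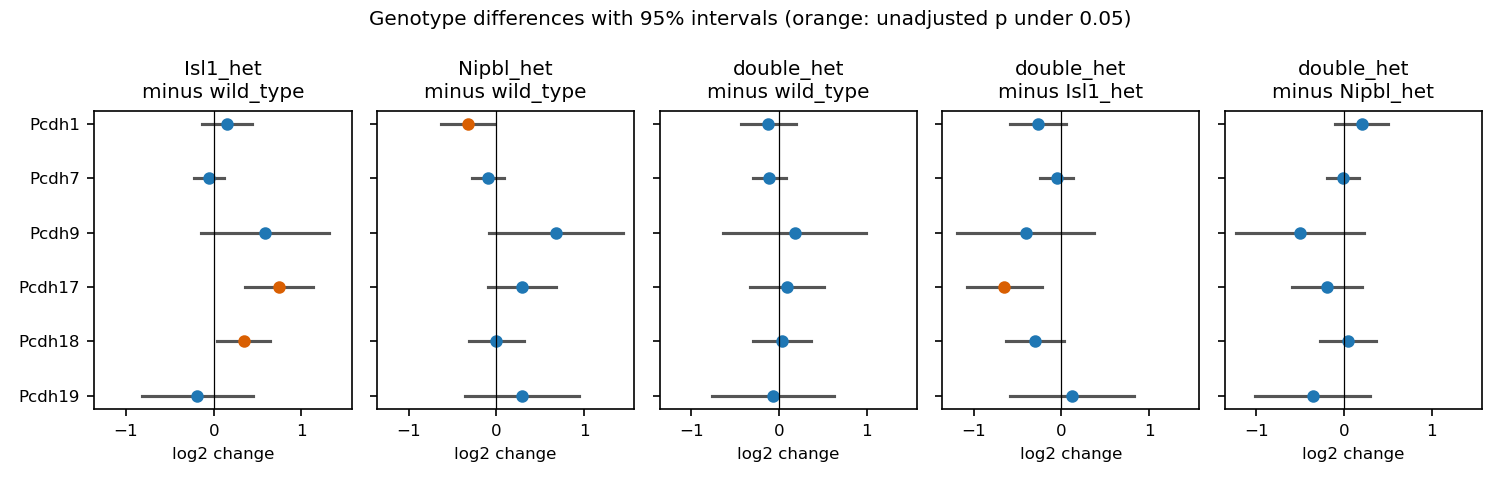
Log2 change of the 6 tested members (points) with 95% intervals (lines) in 5 pairwise comparisons, with unadjusted p under 0.05 in orange. The interval of Pcdh17 in Isl1_het against wild_type, 0.36 to 1.13, lies farthest from 0, and no member passed the adjusted threshold.

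Pcdh17, a delta-2 member of presynaptic contacts and axon extension, had the largest pairwise genotype change among the 6 tested members. Its CPM in wild_type ran from 0.520 over a median of 2.07 to 5.44, and in Isl1_het from 2.12 over 3.19 to 5.42. In Nipbl_het it ran from 2.70 over 3.16 to 3.80, and in double_het from 1.86 over 2.66 to 4.59. Of the 9 Isl1_het libraries, 8 lay above the wild_type mean of 2.39 CPM, as did 9 of 9 Nipbl_het and 6 of 9 double_het libraries. The ranges of Isl1_het and wild_type overlapped. The log2 change in Isl1_het against wild_type was 0.74 (SE 0.19, 95% interval 0.36 to 1.13), with an unadjusted p of 4.01e-04 and an adjusted p of 0.306 (edgeR). Over the alternatives the adjusted p ran from 0.0510 with DESeq2 to 0.991 without the set term.

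The Pcdh17 difference was uneven across sets. Set 1 gave the largest value: its 3 wild_type libraries were at 1.70, 0.520 and 0.653 CPM, and its 3 Isl1_het libraries at 2.99, 2.12 and 3.18 CPM. These 2 triplets did not overlap, and the share of all genes with such a separation in set 1 was not counted. The difference of mean log2 CPM was 1.63 in set 1, 0.74 in set 2, 0.39 in set 5 and 0.24 in set 6. It was positive in all 4, and without set 1 the fitted change was 0.42 (adjusted p 0.975, edgeR).

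Pcdh17 was also read in the other contrasts, and it passed the threshold in none of them. The comparison of double_het with Isl1_het shares the Isl1_het libraries with the change above. A value of opposite sign can therefore arise without an effect of Nipbl loss. In double_het against Isl1_het the log2 change was −0.65 (SE 0.21, 95% interval −1.08 to −0.22, adjusted p 0.193, edgeR), and 7 of 9 double_het libraries lay below the Isl1_het mean. It was −0.28 without the set term and −1.04 without set 5. Set by set, mean log2 CPM differed in sets 2, 5 and 6 by −0.83, −0.23 and −0.62. The change in Nipbl_het against wild_type was 0.29 (SE 0.19), or 0.27 without the library labelled Nipbl_het replicate 2, and that in double_het against wild_type 0.09 (SE 0.21), neither past the threshold. The interaction, which compares the double heterozygote with both single changes added up, was −0.94 (SE 0.27, 95% interval −1.49 to −0.39), with an unadjusted p of 0.00137 and an adjusted p of 0.999 (edgeR). Without that library it was −0.91, and it rests on the same wild_type and Isl1_het libraries.

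Pcdh18, a delta-2 member of embryonic mesoderm, was the second most abundant. It ran from 5.43 over a median of 9.90 to 25.0 CPM in wild_type, from 7.71 over 12.0 to 16.8 in Isl1_het, from 9.53 over 11.3 to 17.0 in Nipbl_het and from 7.59 over 11.1 to 14.0 in double_het. The highest value, in wild_type replicate 6, was above all others, and all groups overlapped. The log2 change in Isl1_het against wild_type was 0.34 (SE 0.15, unadjusted p 0.0282, adjusted p 0.835, edgeR), and it was 0.21 without the set term. In Nipbl_het the change was 0.00 (95% interval −0.32 to 0.32), or 0.0056 without the library labelled Nipbl_het replicate 2, and in double_het 0.04 (95% interval −0.29 to 0.37).

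Pcdh19, the X-linked delta-2 member, was low, with 3 to 44 counts per library. Median CPM was 0.404 in wild_type, 0.405 in Isl1_het, 0.446 in Nipbl_het and 0.375 in double_het. The changes against wild_type were −0.19 (SE 0.31), 0.29 (SE 0.32) and −0.07 (SE 0.34) in Isl1_het, Nipbl_het and double_het, so the intervals, such as −0.82 to 0.45 in Isl1_het, do not exclude a change of that size. The change in Nipbl_het was 0.20 without the library labelled Nipbl_het replicate 2. With the Xist level, a measure of female embryos, as a covariate, Pcdh19 had no association past the threshold (adjusted p 0.727, edgeR), nor had any other tested member, against 0.0665% of all genes.

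Pcdh7, of the delta-1 members, ran from 51.5 over a median of 72.9 to 100.2 CPM in wild_type, from 50.7 over 67.8 to 98.3 in Isl1_het, from 49.2 over 89.8 to 104.1 in Nipbl_het and from 47.3 over 86.5 to 110.6 in double_het. With set in the fit, the changes against wild_type were −0.06 (SE 0.08), −0.10 (SE 0.09) and −0.11 (SE 0.09), and that in Nipbl_het was −0.11 without the library labelled Nipbl_het replicate 2. All 5 pairwise intervals lay between −0.30 and 0.17, the narrowest of the family. Without the set term the changes in Nipbl_het and double_het were both 0.17, above 0. Set 1, where Pcdh7 was low, holds no Nipbl +/- library.

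Pcdh1, a delta-1 member of epithelia, ran from 4.19 over a median of 7.40 to 10.9 CPM in wild_type, from 6.26 over 8.62 to 10.7 in Isl1_het, from 4.09 over 6.83 to 9.10 in Nipbl_het and from 3.84 over 8.58 to 10.7 in double_het. In Nipbl_het against wild_type the log2 change was −0.32 (SE 0.15, unadjusted p 0.0364, adjusted p 0.291, edgeR), with 6 of 9 libraries below the wild_type mean, and it was −0.32 without the library labelled Nipbl_het replicate 2. The differences of mean log2 CPM within sets 2, 5 and 6 were −0.24, −0.12 and −0.58. Averaged over both Isl1 genotypes, the effect of Nipbl loss on Pcdh1 was −0.30 (SE 0.11, 95% interval −0.53 to −0.07), with an adjusted p of 0.168 (edgeR). It was −0.29 without that library, −0.09 without the set term and −0.45 without set 5.

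Pcdh9, a delta-1 member of the developing brain, had 3 to 57 counts per library. Its CPM ran from 0.119 over a median of 0.247 to 0.652 in wild_type, from 0.209 over 0.453 to 0.550 in Isl1_het, from 0.168 over 0.332 to 1.56 in Nipbl_het and from 0.0807 over 0.328 to 0.752 in double_het. The value of 1.56 belongs to the library labelled Nipbl_het replicate 2. The log2 change in Nipbl_het against wild_type was 0.68 (SE 0.37, adjusted p 0.396, edgeR), and 0.24 without that library. The interaction of Pcdh9 was −1.09 (SE 0.51, unadjusted p 0.0395, adjusted p 0.999, edgeR), and −0.62 without that library. In Isl1_het against wild_type, which does not use it except through the shared spread and set levels, the change was 0.59 (SE 0.36), positive in each of sets 1, 2, 5 and 6 at 0.55, 0.34, 0.79 and 0.82.

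The library labelled Nipbl_het replicate 2 was the highest of the 37 in Pcdh9 and Pcdh10, in Pcdh11x (1.09 CPM) and in Xist (656 CPM), and it had the lowest count of Pcdh12, 37 counts or 1.01 CPM, with the other 36 libraries at 4.30 CPM or above. Its cushion mesenchyme markers summed to 121 CPM and its neuron and neural crest markers to 27.5 CPM, each the lowest of the 37, with the other libraries at 130.4 and 28.1 CPM or above. Its 5 pharyngeal and second heart field markers summed to 31.4 CPM, against 5.42 to 15.3 CPM in the others. Erythroid markers summed to 484 CPM in it, against 816 CPM or more elsewhere, and its endocardial and endothelial markers, at 585 CPM, lay within the range of 421 to 730 CPM. Hba-a1, Sox1, Pax3, Pax1, Uncx, Myf5, Alb, Shh and Nkx2-1 were at 0 in it, and each of these was also at 0 in at least 1 wild_type library. The part of these tissue differences in the Pcdh9 and Pcdh10 values was not tested. In bulk tissue, fewer cells of a type and less RNA per cell cannot be told apart.

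A test of any set difference passed the threshold for 4 of 6 tested members, Pcdh7, Pcdh17, Pcdh18 and Pcdh1, while 38.2% of all tested genes were called. With the replicate block Pcdh18 no longer passed. The libraries of set 1 carry only low title numbers, so the block and the set are partly confounded, here and in the set comparisons below. What a set stands for biologically or technically is not given in the labels. Pcdh7 ran from 50.7 over a median of 61.0 to 74.4 CPM in set 1 and from 47.3 over 62.0 to 73.1 in set 2. In set 5 it ran from 71.9 over 89.3 to 108.8 CPM, and in set 6 from 86.9 over 96.7 to 104.1. Sets 1 and 2 thus lay low and sets 5 and 6 high, and set 6 did not overlap with set 1 or set 2. The fitted log2 difference of Pcdh7 was 0.61 (SE 0.08, adjusted p 1.52e-05, edgeR) between sets 5 and 2 and 0.70 (SE 0.09, adjusted p 4.04e-06, edgeR) between sets 6 and 2, comparisons in which 33.5% and 23.3% of all genes were called. With the replicate block the first was 0.41 and no longer passed (adjusted p 0.139), while the second was 0.58 (adjusted p 0.0277, edgeR). The count of all genes called went from 5034 to 886 in the first and from 3500 to 2540 in the second.

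**Figure D4:**
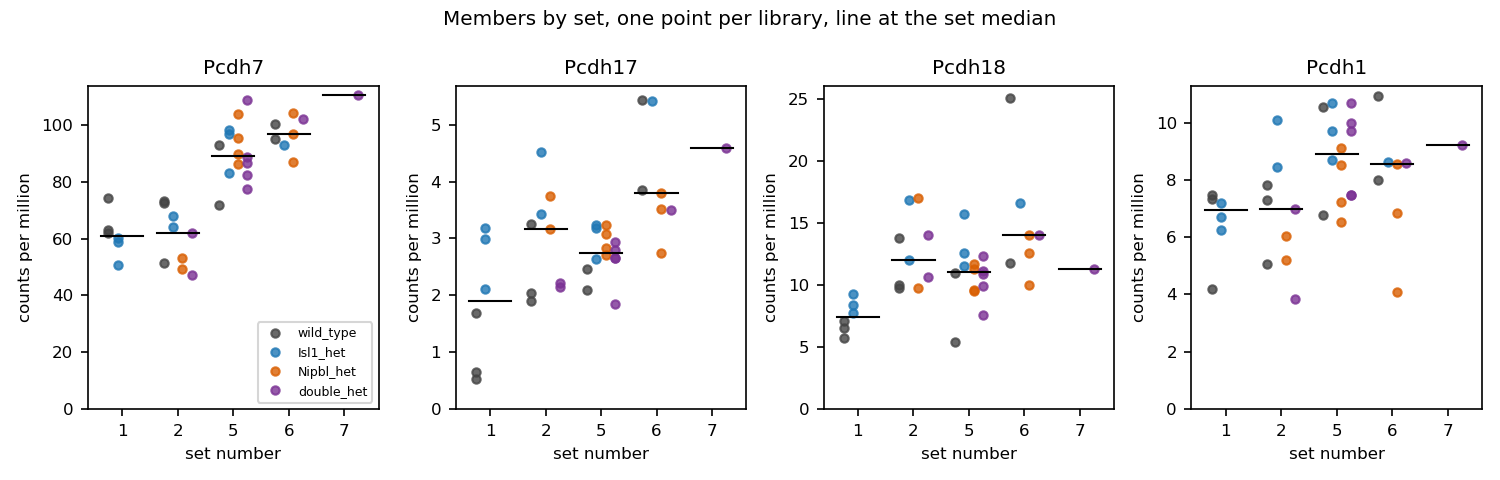
CPM of Pcdh7, Pcdh17, Pcdh18 and Pcdh1 (vertical axis) by set number, each point 1 library coloured by genotype and each line the set median. Pcdh7 is at a median of 61.0 and 62.0 in sets 1 and 2 and at 89.3 and 96.7 in sets 5 and 6, and the wild_type libraries of set 1 are the lowest for Pcdh17.

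Of the delta-2 members, Pcdh17 and Pcdh18 were the 2 of 6 members called between sets 2 and 1, where 6.85% of all genes were, and 0 of 6 were called between sets 6 and 5, against 0.930%. With the replicate block both calls between sets 2 and 1 were lost, at 0.60 for Pcdh17 and 0.66 for Pcdh18 (adjusted p 0.385 and 0.179, edgeR). The count of all genes called between these sets went from 1031 to 3459 with the block. Between sets 6 and 5 the log2 difference was 0.60 for Pcdh17 and 0.51 for Pcdh18 (adjusted p 0.0958 and 0.0761, edgeR). Pcdh19 did not pass in the test of any set (adjusted p 0.148, edgeR), with differences from set 1 of 0.29, −0.40 and 0.21 in sets 2, 5 and 6. The Pcdh17 call between sets 2 and 1 (log2 difference 0.86, adjusted p 0.0184, edgeR) was lost without wild_type replicate 2 (0.68, adjusted p 0.0645) and without wild_type replicate 3 (0.70, adjusted p 0.0669). Pcdh17 had a median of 1.91 CPM in set 1, 3.16 in set 2, 2.75 in set 5 and 3.80 in set 6. The log2 difference between sets 6 and 1 was 1.37 (SE 0.24, adjusted p 1.35e-04, edgeR). Pcdh18 ran from 5.76 to 9.29 CPM in set 1, below the lowest library of set 2 (9.73) and of set 6 (10.0), while set 5, at 5.43 to 15.7 CPM, overlapped with it. Its log2 difference between sets 6 and 1 was 1.12 (SE 0.19, adjusted p 8.20e-05, edgeR), a comparison in which 26.6% of all genes were called. Pcdh1 differed by 0.61 (SE 0.17, adjusted p 0.0121, edgeR) between sets 5 and 1, where 22.2% were called, and by 0.60 with the replicate block, no longer past the threshold (adjusted p 0.0685, edgeR). With the block 1304 genes were called between these sets, against 3347 without it. Set 1 holds only Nipbl +/+ genotypes, and its difference from other sets is estimated from wild_type and Isl1_het libraries. Cardiomyocyte markers summed to a median of 39772 CPM in set 1 and 29783 CPM in set 6, and epicardial markers to 323 and 505 CPM; their part in the set differences of the members was not tested.

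Some members departed together from their genotype and set levels. Over 36 libraries, with genotype and set removed and double_het replicate 2 left out because it is fitted exactly, Pcdh1 correlated with Pcdh7 (Pearson's r 0.63, permutation p 5.00e-05, adjusted p 7.50e-04; Spearman's rho 0.65, permutation p 3.00e-05, adjusted p 4.50e-04, over 15 pairs of members). Within sets 1, 2, 5 and 6 the coefficient was 0.49, 0.75, 0.68 and 0.59, and without the 2 libraries farthest in Pcdh1 it was 0.60. Pcdh1 also correlated with Pcdh18 (r 0.53, permutation p 6.70e-04, adjusted p 0.00502; rho 0.54, permutation p 8.90e-04, adjusted p 0.00667), at 0.73, 0.14, 0.70 and 0.74 within the sets and 0.48 without the 2 farthest libraries. Pcdh18 and Pcdh19 had r 0.45 (permutation p 0.00600, adjusted p 0.0300; rho 0.46, permutation p 0.00548, adjusted p 0.0274), but the sign was not the same in every set, at −0.42, 0.79, 0.25 and 0.49. The remaining 12 pairs had adjusted p of 0.0963 or above for r. The members of a pair come from the same libraries and share their depth and tissue composition. Coefficients of pairs drawn from all genes were not computed, so it cannot be said whether these values are particular to the family.

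**Figure D5:**
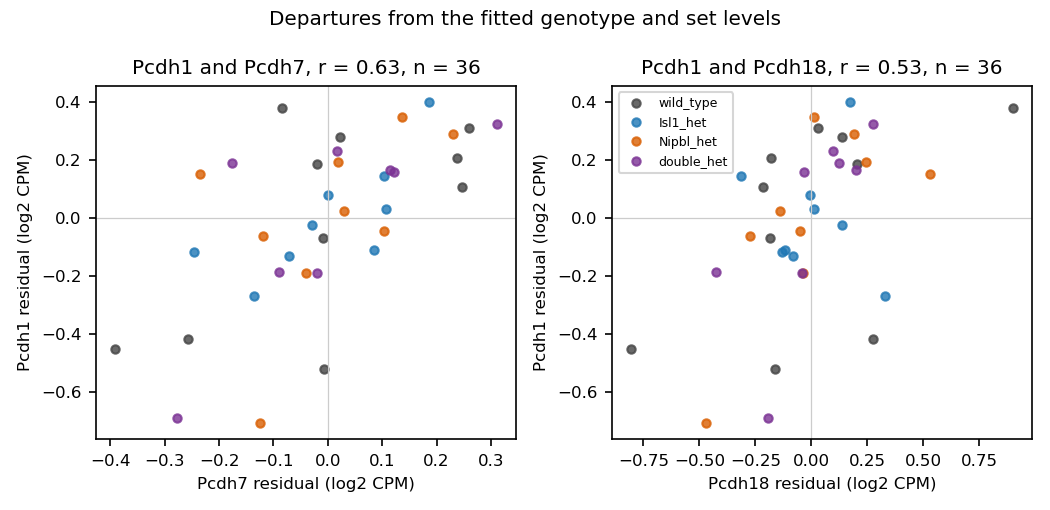
Departure of Pcdh1 from its fitted genotype and set level (vertical axis, log2 CPM) against that of Pcdh7 (left) and Pcdh18 (right), 1 point per library, coloured by genotype. Libraries high in Pcdh1 tend to be high in Pcdh7, with r 0.63 over 36 libraries.

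Of the other non-clustered protocadherins, 2 of 4 were tested and 0 passed the threshold in any contrast, with 0 at an unadjusted p under 0.05. Over the contrasts, 0% to 4.02% of all genes passed, and 2.73% to 15.1% had an unadjusted p under 0.05. A count of 0 among 2 genes is near these shares. Pcdh12, the endothelial protocadherin, had medians of 5.78, 7.15, 6.83 and 8.57 CPM in wild_type, Isl1_het, Nipbl_het and double_het. Its log2 change in double_het against wild_type was 0.26 (SE 0.22, adjusted p 0.724, edgeR). Pcdh11x, the X-linked delta-1 member, changed by 0.32 (SE 0.29) in Isl1_het, 0.12 (SE 0.30) in Nipbl_het, the library labelled Nipbl_het replicate 2 included, and 0.03 (SE 0.32) in double_het, none past the threshold. Pcdh15 of inner ear hair cells and Pcdh20 had at most 7 and 15 counts in a library and were not tested.

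Genes whose products work with delta protocadherins were also counted. Of 9 genes for subunits of the WAVE complex, all tested, 0 passed the threshold in any contrast. Their median changes were 0.02, 0.04 and −0.01 in Isl1_het, Nipbl_het and double_het against wild_type. At an unadjusted p under 0.05 the count was 0, 1 and 1 of 9, against 5.89%, 15.1% and 11.6% of all genes. Of 7 other known partners, among them Cdh2, Dab1 and Taok2, 0 passed, with 1, 1 and 2 at an unadjusted p under 0.05. The corresponding medians over all genes were 0.00, 0.01 and 0.00. Of 15 cadherins and catenins, 1 rose in Nipbl_het, 1 in double_het and 1 in the mean Nipbl effect, where 1.71%, 2.60% and 4.02% of all genes were called. In each case it was Cdh13, the membrane-anchored T-cadherin. Cdh13 was at 15.9 ± 4.04 CPM in wild_type (SD, n = 10), 22.6 ± 2.63 in Nipbl_het (SD, n = 9) and 24.1 ± 2.57 in double_het (SD, n = 9). Every double_het library lay above every wild_type library. How many of all genes separate in this way was not counted, and wild_type includes set 1, which has no double_het library. Its log2 change was 0.41 in Nipbl_het (SE 0.09, adjusted p 0.0149, edgeR), 0.37 there without the library labelled Nipbl_het replicate 2 (adjusted p 0.0223, edgeR), and 0.46 in double_het (SE 0.10, adjusted p 0.00489, edgeR). Without set 1, 2, 5 or 6 the adjusted p in Nipbl_het was 0.0577, 0.0879, 0.0573 or 0.147, and without set 5 that in double_het was 0.257 (edgeR).

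Cnmd, the gene for chondromodulin, an inhibitor of vessel growth in cartilage and heart valves, lies 104.6 kb from Pcdh8 and was the 1 neighbour of a member that changed among the 9 of 14 neighbours tested. It was called in Nipbl_het and in double_het against wild_type, in double_het against Isl1_het and in the mean Nipbl effect, where 1.71%, 2.60%, 0.957% and 4.02% of all genes were called. It ran from 1.30 over a median of 2.05 to 3.57 CPM in wild_type and from 1.02 over 2.09 to 3.44 in Isl1_het. In Nipbl_het it ran from 2.57 over 4.63 to 5.85, and in double_het from 4.28 over 5.52 to 10.8. All 9 double_het libraries were above every Nipbl +/+ library. The share of all genes separated in this way was not counted, and the Nipbl +/+ libraries include set 1, which has no double_het library. Pcdh8, next to it, was too low to compare: its unfiltered log2 change in double_het against wild_type was 0.46 (SE 0.82). The log2 change of Cnmd was 0.95 in Nipbl_het (SE 0.21, adjusted p 0.0126, edgeR), 1.44 in double_het (SE 0.22, adjusted p 1.49e-04, edgeR) and 1.33 when double_het was set against Isl1_het (SE 0.22, adjusted p 0.00105, edgeR). The change in Nipbl_het was 1.02 without the library labelled Nipbl_het replicate 2, 0.75 without set 2 (adjusted p 0.254) and 0.97 without set 6 (adjusted p 0.0583). Without set 2, the change in double_het against Isl1_het was 1.10 (adjusted p 0.0880, edgeR). Epicardial markers rose beside Cnmd and Cdh13, with 5 of 7 called in double_het, against 2.60% of all genes, and 1 of 7 in Nipbl_het, against 1.71%, and summed to 261 to 463 CPM in wild_type and 519 to 674 CPM in double_het; their part in either change was not tested.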

How the data were processed

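Hearts of E10.5 mouse embryos were sequenced as bulk RNA, paired-end; RNA was prepared with a NEB Monarch kit and libraries with NEBNext Ultra II, per the labels' protocols. The authors deposited a table of raw counts per gene symbol. STAR, featureCounts, GRCm38 and mm10 are named in the submitters' processing notes. Their versions and roles, and the annotation, strand setting and filters, are not given in the sources used here. The filter on low counts was filterByExpr over the genotypes, with a minimum of 10 and a minimum total of 15. After TMM scaling, edgeR 4.0.16 (on R 4.3.3 with limma 3.58.1) gave the quasi-likelihood fit. Genotype and set number were factors, and all 37 libraries entered 1 fit with 29 residual degrees of freedom. Each two-sided test was adjusted over its 15046 genes by the Benjamini-Hochberg method, and the threshold was 0.05. CPM values are after TMM scaling, and log2 CPM values used a prior count of 2. Correlations used 100000 permutations. The procedure was tested on simulated data. Of 153 pairs of libraries of the same genotype, none had a chi-square per degree of freedom under 7.19, so none lay within sampling noise. Intervals and the floor of 3 counts cover what the model or counting error gives, since reads are not independent molecules. Named genes were the 8 members, Nipbl and Isl1, the other non-clustered protocadherins and any called gene of the related lists. Tested neighbours were also to be named, but values are given only for Cnmd, the neighbour that was called. The 3 most similar genes were to be named for called members, and there were none. One marker gene is not reported here. The members and lists were chosen with earlier results of these data known. The alternatives tried were no set term, the title's replicate number as a block, DESeq2 1.42.0, RLE size factors, no filter, at least 10 counts in every library, Xist as a covariate, each set left out and each library left out. Coordinates are from GENCODE M21. Summaries and plots were made in Python 3.11.15 with matplotlib 3.10.9, scipy 1.17.1 and pandas 2.3.3.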

Additional observations from a re-analysis of the deposited data

Results flagged for a closer look

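In 32 groups of libraries (8 members in 4 genotypes), 6 held a library far from the rest of its group by Dixon's gap ratio. For normally distributed values, chance gives about 1 in 20 such groups. That rate was not tested here, and several members have small counts. The library labelled Nipbl_het replicate 2 stood apart in Pcdh9 (1.56 CPM, 57 counts, next library 0.624 CPM) and in Pcdh10 (1.99 CPM, 73 counts, next library 0.363 CPM). Wild_type replicate 7 was high in Pcdh9 (0.652 CPM, 13 counts) and in Pcdh19 (1.10 CPM, 22 counts), where the nearest libraries of its group were at 0.402 and 0.599 CPM. Double_het replicate 7 was high in Pcdh9 (0.752 CPM, 27 counts, next library 0.373 CPM). Wild_type replicate 6 was high in Pcdh18 (25.0 CPM, 961 counts, next library 13.8 CPM). All other values of these genes lay closer to their group.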

How the results depend on the processing

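The count of 0 called members held in each of the 8 genotype contrasts under every alternative and with each library left out. The count of all called genes, not tabulated with single libraries left out, moved by over 1.5 times in 6 of the 8 genotype contrasts. In Nipbl_het against wild_type it went from 258 to 459 with DESeq2, 467 without the set term, 168 with the replicate block, and 118, 31 and 124 without set 1, 2 or 5. In double_het against wild_type it went from 391 to 235, 113, 67 and 223 without set 1, 2, 5 or 6, and in double_het against Isl1_het from 144 to 234 with DESeq2 and to 74, 22, 12 and 80 without these sets. The mean Nipbl effect went from 605 to 1045 without the set term and to 152, 275 and 401 without set 2, 5 or 6, the mean Isl1 effect from 26 to 115 with DESeq2, 7 without set 6 and 0 without the set term or set 1, 2 or 5, and Isl1_het against wild_type from 0 to 11 with DESeq2. Counts between sets also moved by over 1.5 times. With the replicate block they went from 1031 to 3459 (sets 2 and 1), 5034 to 886 (sets 5 and 2) and 3347 to 1304 (sets 5 and 1). Between sets 6 and 5 the count went from 140 to 0 with the block and 529 with DESeq2. It was 70 there without the filter and 45 with the Xist covariate. Directions that turned were all of changes not past the threshold. The values that follow are not all that turned. Without the set term, Pcdh7 was at 0.17 in Nipbl_het and 0.17 in double_het, Pcdh1 at 0.12 in double_het, and the mean Nipbl effect on Pcdh17 at 0.071. Without set 1, Pcdh7 in Isl1_het was 0.027, Pcdh18 in Nipbl_het −0.015 and Pcdh17 in double_het −0.075. Without set 2, Pcdh7 in Nipbl_het was 0.013, Pcdh18 −0.11 in Nipbl_het and −0.033 in double_het, and Pcdh19 0.033 in double_het. Without set 5, Pcdh18 was −0.13 in Nipbl_het and −0.046 in double_het, and Pcdh17 −0.12 in double_het. Without set 6, Pcdh9 in double_het was −0.12. Pcdh18 in Nipbl_het, fitted at 0.00, was −0.00024 with at least 10 counts in every library, −0.010 with DESeq2, −0.0042 without the filter, −0.011 with RLE size factors and −0.022 with the Xist covariate. With each library left out it ran from −0.11 to 0.19, Pcdh18 in double_het from −0.076 to 0.19, Pcdh19 in double_het from −0.22 to 0.13 and Pcdh9 in double_het from −0.19 to 0.34. Without the filter and without the library labelled Nipbl_het replicate 2, Pcdh10 was at 0.14 in Isl1_het and −0.13 in Nipbl_het, and Pcdh8 at −0.048 in Nipbl_het. The cause was not tested.

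Libraries with the same title number did not deviate together (median correlation 0.03 over 54 pairs of different genotype, lowest −0.45), so the numbers do not pair samples. With the number as a replicate block, 0 members were called in each genotype contrast, and 3 in place of 4 in the test of any set, the one lost being Pcdh18; Pcdh17 in Isl1_het was 0.73 (adjusted p 0.506, edgeR). Depth limits Pcdh8, Pcdh10, Pcdh9 and Pcdh19, whose counts are few.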
